A study of Mus musculus with 12 samples.

Results

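The potassium channel genes were taken as all protein-coding genes of the 12-library table whose symbol starts with Kcn, which gave 86 of 19954 listed genes. RNA was sequenced from mouse retina of the C57BL/6 strain at stage E15.5. The 12 libraries were each made from a pool of 12 retinas drawn from several litters. They formed 4 groups of 3 libraries, numbered 4, 5 and 6: mutant males, wildtype males, mutant females and wildtype females. The mutant genotype was Six3-Cre:Tbr2f/f, in which Tbr2 alleles are floxed. Six3-Cre is active in the eye field of the embryo, so the deletion is not restricted to the ganglion cells that make Tbr2. No Cre-only or floxed-only group was among these libraries. Tbr2 is a T-box transcription factor listed under its gene symbol Eomes, and the study's title places it in the development of intrinsically photosensitive retinal ganglion cells (ipRGCs). Because retinas were pooled, the p-values measure the spread between pools and not between embryos.

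Potassium channels let potassium ions leave or enter a cell along their gradient, and they set the resting potential and the shape and rate of action potentials. Voltage-gated (Kv) channels assemble from pore subunits, some of which are electrically silent and work only together with other pore subunits. Inward rectifiers and two-pore-domain channels hold the resting potential, calcium- and sodium-activated channels follow the ion load of a cell, and accessory subunits change the gating or trafficking of the pores. In the retina these genes serve ganglion cell firing, photoreceptor currents and potassium clearance by glia, most of which matures after the embryonic stage studied here.

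Total counts per library ran between 18514607 and 27072825. Eomes was at 9.62 to 27.4 CPM (reads scaled by the library total) in the 6 mutant libraries and at 53.4 to 76.1 CPM in the 6 wildtype libraries, with any exons outside the deleted part included in these counts. The 6 markers of retinal progenitors summed to 2002 to 2350 CPM in mutants and 1991 to 2116 CPM in wildtype. The 6 ganglion cell markers summed to 978 to 1094 CPM in mutants and 1011 to 1114 CPM in wildtype. In edgeR over both sexes all 6 had log2 fold changes below 0 (median -0.05), with 0 at an unadjusted p under 0.05. The 5 ipRGC markers, which include Eomes itself, summed to 31.9 to 57.6 CPM in mutants and 92.0 to 146 CPM in wildtype. Lens markers varied most: 9 of 10 were listed, Crygc, Bfsp2 and Mip were at 0 in at least 1 library, and the sum ran from 6.27 to 1661 CPM in mutants and from 9.39 to 668 CPM in wildtype. The mitochondrial transcript mt-Nd6 split the libraries into 5 high ones (mutant male 4, wildtype male 5, mutant female 4, wildtype females 4 and 6) and 7 others. In whole retina, fewer cells of a type and less RNA per cell cannot be told apart.

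Potassium channel genes were mostly weakly represented at this stage. Levels between genes are given in FPKM as deposited by the authors, which scales reads by listed gene length and library total. The median member averaged 0.613 FPKM over the 12 libraries, against 6.64 FPKM for the median protein-coding gene. A mean of at least 1 FPKM was reached by 30 members (34.9%), against 73.0% of protein-coding genes. At the low end, 16 members lay under 0.1 FPKM and 18 had 0 reads in at least 1 library. Enough reads for a test over both sexes were found for 69 members. The 17 left untested were Kcnk9, Kcne3, Kcnk13, Kcns1, Kcns3, Kcnn4, Kcnk7, Kcnmb1, Kcnj15, Kcnk4, Kcnj5, Kcng2, Kcnh3, Kcnj6, Kcne4, Kcnj16 and Kcng3.

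A few genes made up most of the potassium channel RNA. The top 7 members held 62.8% of the summed FPKM of all 86. Kcnk1, a two-pore-domain leak channel, was the highest, at 27.4 FPKM (lowest), 29.8 (median) and 36.6 (highest) in mutants and 27.6, 29.8 and 32.1 FPKM in wildtype. With the sexes pooled, the Kcnk1 range of mutants enclosed that of wildtype, while in males the mutants lay above wildtype. Kcnk1 alone held 18.1% of the sum. Kcnh2, the pore of the rapid delayed rectifier of the ERG type, had a median of 17.9 FPKM in mutants and 16.6 FPKM in wildtype. Kcne1l, an X-linked accessory subunit of the Kcne family, averaged 14.7 ± 2.03 FPKM in mutants and 14.9 ± 0.645 FPKM in wildtype (SD, n = 6 each). Kcnd3, a fast-inactivating A-type pore, averaged 11.5 FPKM over all libraries, with an SD of 0.883 FPKM. Kcnab2, a cytoplasmic beta subunit of Kv channels, stood at 10.3 FPKM and Kcnn1, a small-conductance calcium-activated channel, at 8.46 FPKM.

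After Kcnn1 the levels dropped to 3.68 FPKM for Kcna3, a Kv pore, 3.53 FPKM for the two-pore channel Kcnk5 and 3.15 FPKM for the two-pore channel Kcnk10. Over the 10 highest members the edgeR log2 fold change of mutant over wildtype lay between -0.03 and 0.13, with unadjusted p-values of at least 0.325. Their coefficient of variation over the 12 libraries was lowest for Kcnd3, at 7.65%, and stood at 8.64% for Kcnk1.

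**Figure D1:**
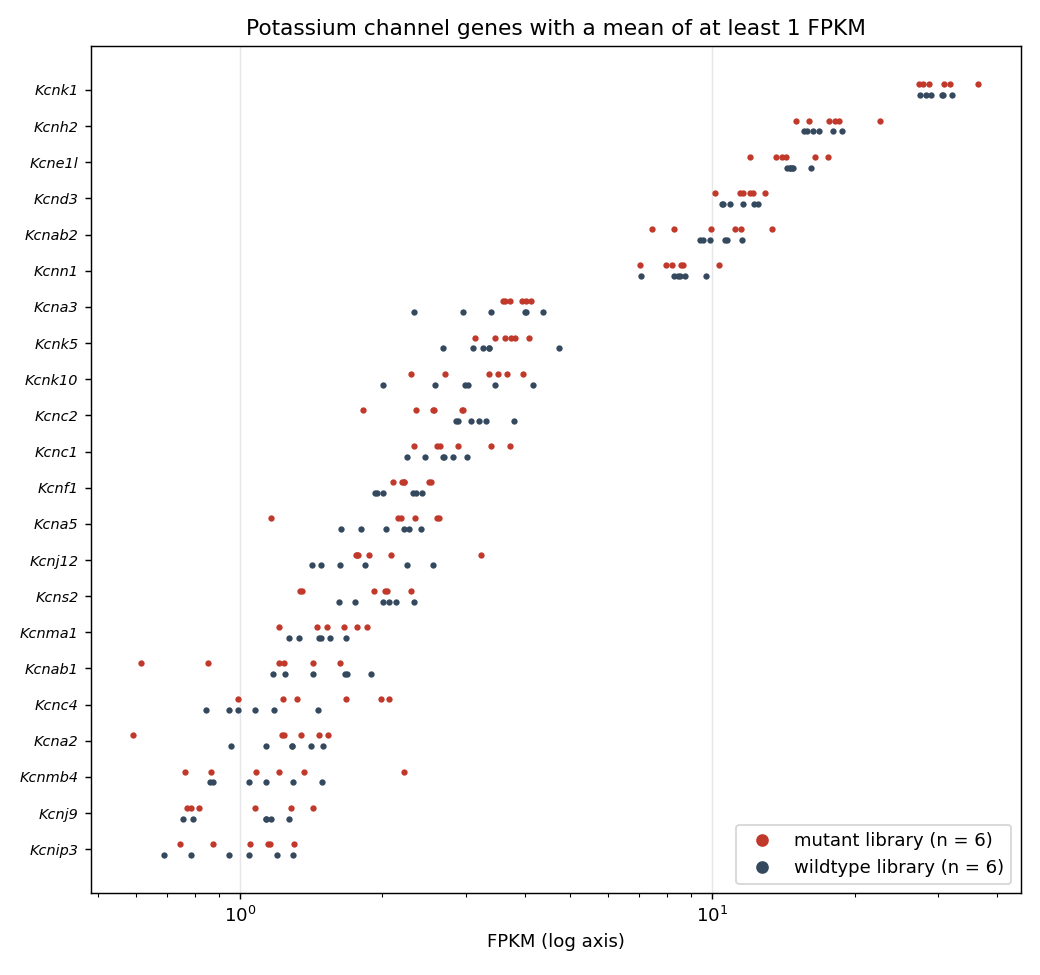
FPKM (x axis, log scale) of 22 members with a mean of at least 1 FPKM, 1 point per library, mutant (red, upper) and wildtype (dark, lower) libraries of each gene. The genes from Kcnk1 to Kcnn1 stand apart from the rest, and mutant and wildtype points overlap in each gene from Kcnk1 to Kcnk10.

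Among Kv pore subunits, 13 of 28 members reached 1 FPKM. Of the Kcnc genes, whose pores allow fast repolarisation, Kcnc2 stood at 2.86, Kcnc1 at 2.79 and Kcnc4 at 1.31 FPKM. In the Kcna group Kcna3 was followed by Kcna5 at 2.12 FPKM, Kcna2 at 1.25 FPKM and Kcna6 at 0.926 FPKM, while Kcna1 stood at 0.0772 FPKM. The summed FPKM of all Kv pore subunits was 69.4 ± 5.41 in mutants and 68.2 ± 3.19 in wildtype (SD, n = 6 each).

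The silent Kv subunits were led by Kcnf1 (2.23 FPKM) and Kcns2 (1.91 FPKM), and the photoreceptor subunit Kcnv2 stood at 0.278 FPKM. Their sum was 5.68 ± 0.679 FPKM in mutants and 5.64 ± 0.501 FPKM in wildtype. Inward rectifiers reached 1 FPKM in 2 of 14 members, Kcnj12 (1.97 FPKM) and Kcnj9, a subunit of G protein-gated channels (1.03 FPKM). Kcnj10, the main potassium channel of mature Müller glia, averaged 0.316 FPKM. The inward rectifier sum was 6.15 ± 0.813 FPKM in mutants and 6.35 ± 0.590 FPKM in wildtype.

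Two-pore-domain channels summed to 40.7 ± 3.91 FPKM in mutants and 39.4 ± 1.84 FPKM in wildtype, of which Kcnk1 held 75.3%. Calcium- and sodium-activated channels summed to 11.7 ± 1.49 FPKM in mutants and 11.4 ± 1.08 FPKM in wildtype. Kcnma1, the large-conductance calcium-activated pore, contributed 1.52 FPKM and Kcnn1 73.2% of that sum. Accessory subunits summed to 33.9 ± 3.43 FPKM in mutants and 34.8 ± 1.30 FPKM in wildtype. For each of the 6 families the genotype means differed by less than 1 SD of the mutant libraries.

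The first comparison asked which potassium channel genes differed with genotype when the sexes were fitted together. No member passed the edgeR quasi-likelihood test at an adjusted p of 0.05, with Benjamini-Hochberg adjustment across the 15467 tested genes (0 of 69), where 0.0259% of all genes did. The lowest adjusted p of a member was 0.623 in edgeR. At an unadjusted p under 0.05, edgeR gave 6 of 69 members (8.70%) against 2.92% of all genes, and this difference between the shares was not tested. DESeq2 called 1 member, Kcnh1, where it called 0.097% of all genes, and limma voom called 0, where it called 0.0323% of all genes. Fold changes were above 0 for 32 members and below 0 for 37. The median log2 fold change was -0.01 over the members and -0.01 over all genes tested, and 63 of 69 members lay within 0.5 of 0. The count of 6 members was 2 without wildtype male 6, 3 without mutant male 6 and 3 without wildtype female 6.

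By family, 10 of 27 tested Kv pore subunits lay above 0 and 17 below, and 5 of them were among the 6 members with an unadjusted p under 0.05. Silent subunits split 3 above and 3 below, and inward rectifiers 3 above and 7 below. Two-pore-domain channels were above 0 in 6 of 7 and calcium- and sodium-activated channels in 6 of 7, with medians of 0.09 and 0.17 on the log2 scale. Accessory subunits were above 0 in 4 of 12, with a median of -0.14. Over all genes tested, 47.3% lay above 0. Kcnv1, a silent subunit, had the lowest value, -0.72, with a wide error (SE 0.53, unadjusted p = 0.202 in edgeR). It was at 0.012 FPKM (lowest), 0.122 (median) and 0.230 (highest) in mutants and 0.104, 0.193 and 0.300 FPKM in wildtype. Kcnip4, a calcium-binding partner of A-type pores, was the lowest accessory subunit, at -0.40.

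**Figure D2:**
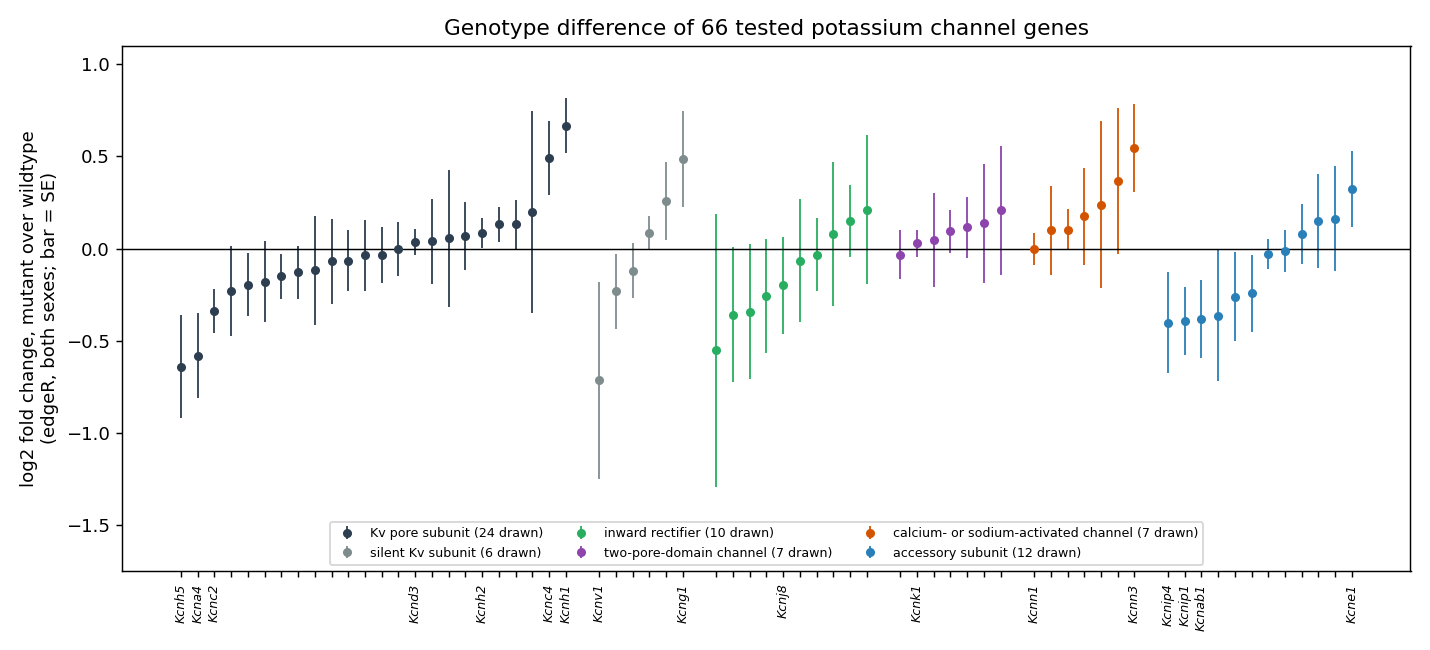
Log2 fold change of mutant over wildtype in the edgeR fit of both sexes for 66 tested members, grouped by family and ordered within it, with bars of 1 SE and some genes named. Most genes lie within 0.5 of 0, with Kcnh1 (0.67) the highest and Kcnv1 (-0.72, with a wide bar) the lowest.

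Kcnh1 encodes a voltage-gated pore of the ether-à-go-go (EAG) type, a slowly activating channel found mainly in neurons. The gene (ENSMUSG00000058248, mm10 chromosome 1, 192190784 to 192510159, plus strand) shares no exon bases with another gene in the GENCODE M21 annotation. M21 lists all 86 members but gives the deposited coordinates for 42 of them, not including Kcnh1, so exon overlaps may differ in the annotation used for counting. Its level was 0.922, 1.05 and 1.06 FPKM in mutant males 4, 5 and 6 and 0.812, 0.632 and 0.870 FPKM in wildtype males. In mutant females 4, 5 and 6 it was 0.994, 1.44 and 1.05 FPKM, against 0.526, 0.597 and 0.677 FPKM in wildtype females. All 6 mutant libraries lay above all 6 wildtype libraries, with mutant female 5 the highest. Kcnh1 was the single one of 69 tested members with this pattern, which 0.0776% of all genes tested showed. Reads per library numbered 140 to 244 in mutants and 85 to 150 in wildtype.

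Kcnh1 averaged 1.09 ± 0.182 FPKM in mutants and 0.686 ± 0.131 FPKM in wildtype (SD, n = 6 each). The log2 fold change was 0.67 in edgeR (SE 0.15, unadjusted p = 0.000564, adjusted p = 0.623). DESeq2 gave 0.67 with an adjusted p of 0.0230, and limma voom gave 0.67 with an adjusted p of 0.548. In the authors' deposited table, made with DESeq2, the log2 fold change was 0.40 with an adjusted p of 0.0137, and 0.0978% of the genes there passed. That table holds the same counts and is not an independent source. Its fold changes lay closer to 0 for other members too. Kcna4 was at -0.21 there, against -0.58 in the DESeq2 fit run here, and Kcnh5 at -0.20, against -0.64. The deposited 0.40 is therefore not compared in size with 0.67. Over 21 alternatives run here the Kcnh1 fold change ran from 0.53 to 0.73 and the adjusted p from 0.0230 to 1.0. Its side of the threshold thus depended on the test, while its direction was kept in each of the 21. Within the high mt-Nd6 libraries it was 0.66 and within the other libraries 0.62. Of the 3 libraries highest in the lens gene Cryaa, mutant female 5, mutant male 5 and wildtype male 5, the first was also the highest in Kcnh1. All 8 tested lens markers had log2 fold changes above 0 (median 1.53), with 0 of them past the edgeR threshold, and their part in the Kcnh1 result was not tested beyond leaving libraries out. Without these 3 libraries the Kcnh1 fold change was 0.53 (edgeR, unadjusted p = 0.00440, adjusted p = 1.0).

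The 300 bases around the annotated start of Kcnh1 (250 before and 50 after it, RefSeq, GRCm38.p6, chr1:192190527-192190826, plus strand) are printed because Kcnh1 was the one member that DESeq2 called. They hold 66.0% G and C and 27 CpG sites. The window of Kcnc2, the member below 0 with the smallest p (chr10:112270873-112271172, plus strand), is given beside it, with 53.0% G and C and 5 CpG sites. Capitals mark CpG sites.
Kcnh1: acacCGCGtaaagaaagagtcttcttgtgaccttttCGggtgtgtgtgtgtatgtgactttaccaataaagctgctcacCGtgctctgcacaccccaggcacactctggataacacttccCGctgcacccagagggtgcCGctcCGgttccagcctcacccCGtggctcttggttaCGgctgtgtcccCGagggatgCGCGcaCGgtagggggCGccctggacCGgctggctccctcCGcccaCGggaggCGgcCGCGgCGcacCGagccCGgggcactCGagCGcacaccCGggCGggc
Kcnc2: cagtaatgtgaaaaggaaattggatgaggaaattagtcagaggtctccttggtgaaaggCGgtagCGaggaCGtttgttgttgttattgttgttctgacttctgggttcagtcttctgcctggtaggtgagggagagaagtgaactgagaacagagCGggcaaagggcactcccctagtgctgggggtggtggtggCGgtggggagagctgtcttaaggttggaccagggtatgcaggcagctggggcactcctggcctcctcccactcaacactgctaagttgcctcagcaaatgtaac

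Of the other members with an unadjusted p under 0.05, 2 lay higher in mutants. Kcnc4, a fast-inactivating Kv pore, was at 1.23, 2.06 and 1.99 FPKM in mutant males 4, 5 and 6 and at 0.845, 1.08 and 0.989 FPKM in wildtype males. In females Kcnc4 was at 0.986, 1.32 and 1.68 FPKM in mutants and 1.18, 0.944 and 1.46 FPKM in wildtype. The genotypes were apart in males and overlapped in females. Over both sexes the Kcnc4 log2 fold change was 0.49 in edgeR (SE 0.20, unadjusted p = 0.0289, adjusted p = 0.918). It turned to -0.14 within the high mt-Nd6 libraries and was 0.96 within the others. Kcnn3, a small-conductance calcium-activated channel, was at 0.207 FPKM (lowest), 0.325 (median) and 0.504 (highest) in mutants and at 0.136, 0.216 and 0.348 FPKM in wildtype. The genotypes overlapped, and the log2 fold change was 0.55 in edgeR (SE 0.24, unadjusted p = 0.0401, adjusted p = 0.918). Over both sexes, neither Kcnc4 nor Kcnn3 had an unadjusted edgeR p under 0.05 without mutant male 6 or without wildtype male 6. The same held for each of them without several other single libraries.

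Lower in mutants were 3 members with an unadjusted p under 0.05. Kcnc2, a pore of fast-spiking neurons, was at 2.96, 2.57 and 2.35 FPKM in mutant males 4, 5 and 6 and at 3.09, 3.31 and 3.20 FPKM in wildtype males. In females it was at 2.56, 1.82 and 2.95 FPKM in mutants and 2.87, 2.89 and 3.80 FPKM in wildtype. Males did not overlap and females did. The edgeR log2 fold change of Kcnc2 was -0.34 (SE 0.12, unadjusted p = 0.0136, adjusted p = 0.918), and it was -0.28 within the high mt-Nd6 libraries and -0.31 within the others.

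Kcna4, an A-type Kv pore, was at 0.298, 0.248 and 0.282 FPKM in mutant males and 0.390, 0.310 and 0.543 FPKM in wildtype males. Mutant females had 0.333, 0.134 and 0.324 FPKM and wildtype females 0.339, 0.403 and 0.438 FPKM. Every mutant library lay below every wildtype library of its own sex, a pattern of 1 of 69 members and of 0.239% of all genes tested. Few reads stand behind it, 15 to 36 per mutant library and 36 to 62 per wildtype library. The edgeR log2 fold change was -0.58 (SE 0.23, unadjusted p = 0.0264, adjusted p = 0.918), with -0.14 within the high mt-Nd6 libraries and -0.81 within the others. Without mutant male 5, wildtype male 6 or wildtype female 6, the unadjusted edgeR p of Kcna4 was not under 0.05. Kcnh5, the second pore gene of the EAG type, was at 0.266 FPKM (lowest), 0.474 (median) and 0.739 (highest) in mutants and 0.464, 0.733 and 1.17 FPKM in wildtype. Its genotypes overlapped, and its fold change of -0.64 (edgeR, SE 0.28, unadjusted p = 0.0384, adjusted p = 0.918) had the opposite sign to that of Kcnh1. Leaving out 1 library, the Kcnh5 fold change ran from -0.80 to -0.42. Without mutant male 6, and without several other single libraries, its unadjusted edgeR p was not under 0.05.

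**Figure D3:**
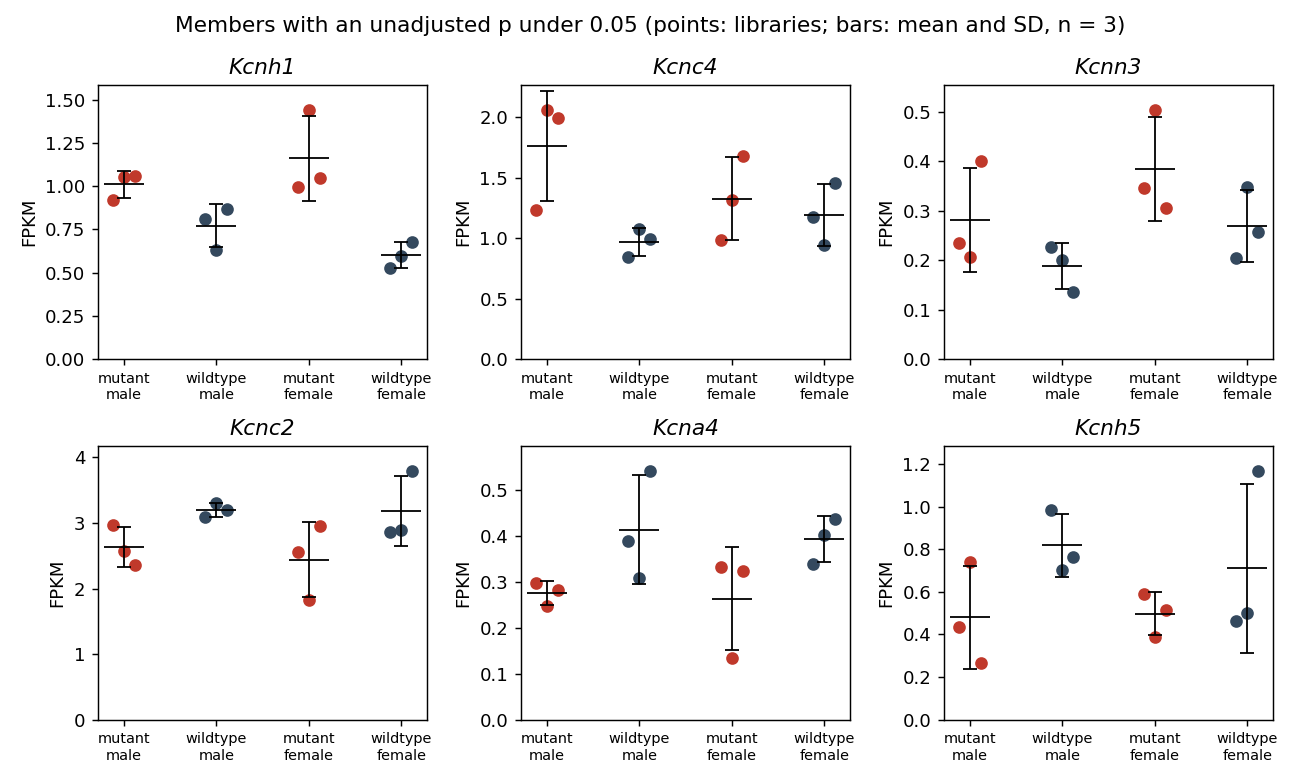
FPKM in each library of the 6 members with an unadjusted p under 0.05 in the edgeR fit of both sexes, by genotype and sex, with the mean and SD of 3 libraries. Mutant points (red) of Kcnh1 lie above all wildtype points (dark), Kcnc4 is apart in males, and Kcna4 is lower in mutants within each sex.

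Next in order of p were Kcnip1, Kcng1, Kcnab1 and Kcne1. Kcnip1, a calcium-binding partner of A-type pores, averaged 0.771 ± 0.165 FPKM in mutants and 1.01 ± 0.211 FPKM in wildtype (SD, n = 6 each), an edgeR log2 fold change of -0.39 (unadjusted p = 0.0517). Kcnab1, a beta subunit that speeds inactivation of Kv pores, averaged 1.16 ± 0.371 FPKM in mutants and 1.52 ± 0.280 FPKM in wildtype (-0.38, unadjusted p = 0.0949 in edgeR). Mutant male 6 held the lowest Kcnab1 value, 0.616 FPKM. Kcng1, a silent subunit, averaged 0.340 ± 0.0960 FPKM in mutants and 0.247 ± 0.0741 FPKM in wildtype (0.49, unadjusted p = 0.0830 in edgeR). Kcne1, the accessory subunit of the slow delayed rectifier, averaged 0.886 ± 0.293 FPKM in mutants and 0.697 ± 0.127 FPKM in wildtype (0.32, unadjusted p = 0.142 in edgeR). The Kcne1 mean rests on mutant female 5 at 1.48 FPKM, with the other 5 mutant libraries at 0.702 to 0.844 FPKM.

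In males alone no member passed edgeR's adjusted threshold (0 of 68, where 0 of 14945 genes did). DESeq2, which called 0.0401% of genes, and limma voom, which called 0, gave 0 members too. An unadjusted p under 0.05 was seen for 2 of 68 members (2.94%), against 1.41% of genes. These were Kcnc4 at 0.86 (SE 0.26, unadjusted p = 0.0104 in edgeR) and Kcnj8 at -0.76 (SE 0.33, unadjusted p = 0.0497 in edgeR). Leaving out single male libraries, the edgeR p of Kcnj8 stayed under 0.05 only without mutant male 4. That of Kcnc4 stayed under 0.05 throughout. At an unadjusted p under 0.05, limma voom gave both genes and DESeq2 gave Kcnc4 but not Kcnj8. Kcnh1 in males was at 0.40 (SE 0.18, unadjusted p = 0.0634 in edgeR, adjusted p = 0.994), and at 0.26 without the libraries highest in Cryaa (unadjusted p = 0.332 in edgeR). Kcnj8, a pore of ATP-sensitive channels known from pericytes, was at 0.653, 0.355 and 0.592 FPKM in mutant males and 0.808, 1.02 and 0.901 FPKM in wildtype males. In females it was at 0.71, 0.820 and 0.865 FPKM in mutants and 0.422, 0.813 and 0.639 FPKM in wildtype. The genotype means thus lay on opposite sides in the sexes, but in females the genotypes overlapped and the unadjusted edgeR p was not under 0.05. The interaction was at 1.13 (SE 0.43, unadjusted p = 0.0221 in edgeR, adjusted p = 1.0). Its unadjusted edgeR p was not under 0.05 without wildtype female 4, without wildtype male 5, without mutant male 5 or without the libraries highest in Cryaa. The 7 vessel and pericyte markers summed to 236 to 258 CPM in mutant males and 236 to 276 CPM in wildtype males, 251 to 272 CPM in mutant females and 240 to 258 CPM in wildtype females, and their part in the Kcnj8 values was not tested. Mutant males lay wholly above wildtype males in 5 of 69 members (7.25%, against 2.47% of all genes), Kcnk1, Kcnk5, Kcnc4, Kcnh1 and Kcng4. They lay wholly below in 4 (5.80%, against 3.04%), Kcnc2, Kcns2, Kcnj8 and Kcna4.

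In females alone no member passed edgeR (0 of 67, where 0.00669% of genes did), and 2 members (2.99%, against 2.63% of genes) had an unadjusted p under 0.05. Kcnh1 was at 0.95 (SE 0.20, unadjusted p = 0.00136 in edgeR, adjusted p = 0.986). DESeq2 called Kcnh1 in females, at 0.96 with an adjusted p of 0.0477, where it called 0.0669% of genes, and limma voom, which called 0.00669%, gave 0 members. In the authors' deposited table Kcnh1 did not pass in females, with a log2 fold change of 0.41 and an adjusted p of 0.0992. This deposited 0.41 is likewise not compared in size with 0.96. Kcnip1 was at -0.53 (SE 0.22, unadjusted p = 0.0390 in edgeR). A replicate block was also fitted, with a pairing of female libraries by number that was inferred from the data and is not stated by the labels. Under this block 5 of 67 members (7.46%, against 5.68% of genes) had an unadjusted edgeR p under 0.05, Kcnh1, Kcnip1, Kcnc2, Kcnj3 and Kcnv1. The adjusted threshold was passed by 0 members, where 0.0134% of genes did. Mutant females lay wholly above wildtype females in 1 member (1.45%, against 4.21% of all genes), Kcnh1, and wholly below in 2 (2.90%, against 3.89%), Kcnip1 and Kcna4.

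The interaction of genotype and sex gave no member past the edgeR threshold (0 of 69, where 0 of 15467 genes passed), and 1 member (1.45%, against 1.73% of genes), Kcnj8, had an unadjusted p under 0.05. For Kcnh1 the fold change of females was 0.56 above that of males on the log2 scale (SE 0.26, unadjusted p = 0.0510 in edgeR, adjusted p = 1.0), and 0.38 without mutant female 5. Between female and male wildtype retina no member passed edgeR either (0 of 69, against 0.00647% of genes), and 1 (1.45%, against 1.49% of genes) had an unadjusted p under 0.05. This was Kcnip3, a calcium-binding partner of A-type pores that also acts as a transcriptional repressor. Kcnip3 was at 0.946, 0.688 and 0.786 FPKM in wildtype females and 1.20, 1.04 and 1.29 FPKM in wildtype males (-0.51, SE 0.23, unadjusted p = 0.0457 in edgeR, adjusted p = 1.0). Kcnk10 followed at -0.46 (unadjusted p = 0.0674 in edgeR). DESeq2 and limma voom called 0 members in the interaction, where each called 0 genes, and 0 between the wildtype sexes, where DESeq2 called 0.0129% and limma voom 0.00647% of genes. The 2 X-linked members, Kcne1l and Kcnd1, were not among these, and Kcne1l was at -0.01 between the wildtype sexes.

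Some members had wide ranges over the 12 libraries, and these ranges include any difference between genotypes. The widest ranges among members of at least 1 CPM were those of Kcnj3 (2.54 on the log2 CPM scale), Kcnj10 (2.51), Kcnh5 (2.09), Kcnk6 (1.97) and Kcna4 (1.85). Mutant male 6 held the highest value of 14 and the lowest value of 17 of the 69 tested members. It also held the lowest Kcnj3 (0.249 FPKM), Kcnj10 (0.0699 FPKM), Kcnk6 (0.119 FPKM) and Kcnh5 values. Over all tested genes it also stood apart, with a median distance of 0.290 on the log2 CPM scale from each gene's median over the libraries, against 0.0849 to 0.152 in the other libraries. It had the fewest reads and, at 16903, the fewest genes with a read.

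Kcnj3, a subunit of G protein-gated inward rectifiers, followed the mt-Nd6 split. In the 5 high libraries it was at 1.22 FPKM in mutant male 4, 1.15 FPKM in mutant female 4, 0.944 FPKM in wildtype male 5, 1.46 FPKM in wildtype female 4 and 0.986 FPKM in wildtype female 6. In the 7 others it lay between 0.249 and 0.692 FPKM, so the sets did not overlap. Exons of Kcnj3 share 31.1% of their bases with the long noncoding gene Gm26794 on the opposite strand. The strand setting of the counting is not given, so reads of Kcnj3 and Gm26794 cannot be told apart there. Kcnb2, Kcnh7 and Kcnt2 also lay wholly higher in the high set, and Kcnh2 wholly lower. These are 4 of 69 members (5.80%) against 9.35% of all genes, and 1 of 69 (1.45%) against 6.35%, and both shares lay below those of all genes. With a term for the mt-Nd6 set, the edgeR log2 fold change over both sexes was 0.62 for Kcnh1 (unadjusted p = 0.000493, adjusted p = 0.421) and 0.48 for Kcnc4 (unadjusted p = 0.0405, adjusted p = 0.958).

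**Figure D4:**
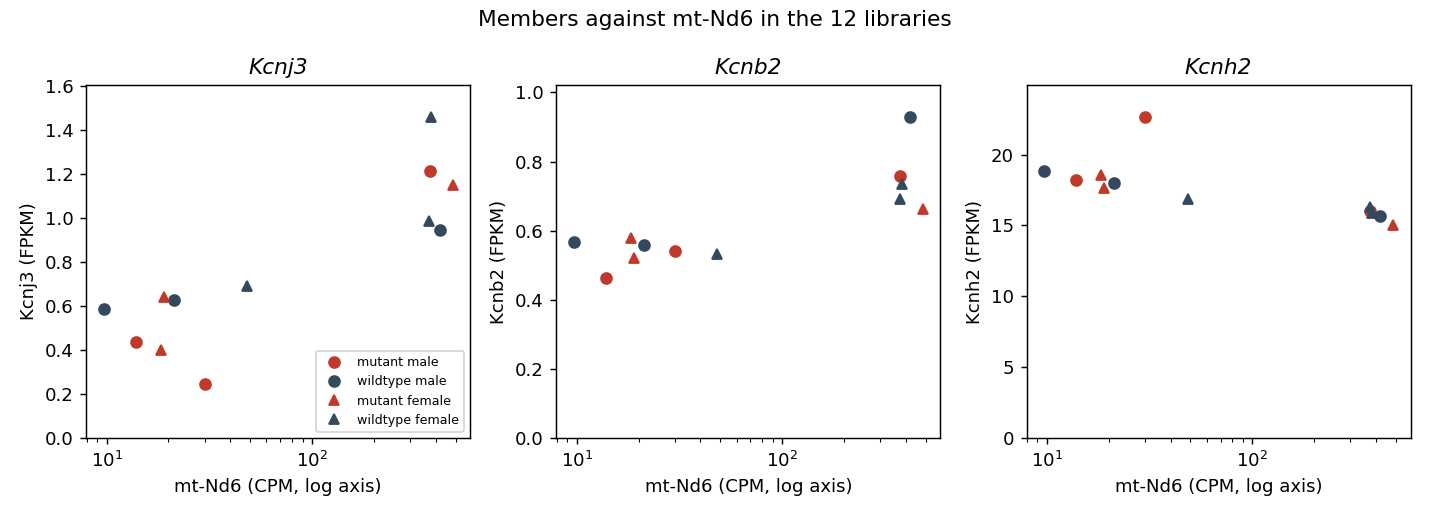
FPKM of Kcnj3, Kcnb2 and Kcnh2 (y axis) against mt-Nd6 in CPM (x axis, log scale) in the 12 libraries, with mutants in red, wildtype dark, males as circles and females as triangles. The 5 high mt-Nd6 libraries sit above the other 7 for Kcnj3 and Kcnb2 and below them for Kcnh2, with both genotypes on each side.

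Potassium channels work with other proteins, and a list of 46 partner genes was examined beside them, of which 44 were listed and tested. In edgeR 0 of 44 passed the threshold, against 0.0259% of all genes, with 14 above and 30 below 0, where 47.3% of all genes lay above, and a median log2 fold change of -0.04. An unadjusted p under 0.05 was seen for 2 of 44, against 2.92% of all genes, among them Dpp10. Dpp10, an accessory subunit of A-type channels, averaged 0.223 ± 0.0494 FPKM in mutants and 0.303 ± 0.0731 FPKM in wildtype (SD, n = 6 each, -0.45, SE 0.17, unadjusted p = 0.0193 in edgeR). Its relative Dpp6 was far higher, at 15.4 ± 1.32 FPKM in mutants, with an edgeR log2 fold change of -0.01 against wildtype. Of the cation channels that share the Kv fold and open on hyperpolarisation, Hcn4 was the highest, at 11.1 ± 2.08 FPKM in mutants and 10.3 ± 0.785 FPKM in wildtype. Rest, a repressor of neuronal genes, was at 9.90 ± 0.491 FPKM in mutants and 10.1 ± 0.706 FPKM in wildtype.

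Promoter windows of the same 300 bases were found for 61 of the 86 members. Some of these windows lie at an annotated start far from the listed gene start. The distance was 239245 bases for Kcnip4, 162637 for Kcna5, 43240 for Kcnj12 and 22013 for Kcnh2, and these windows were kept. The 61 windows held a median of 62.0% G and C and 12 CpG sites, against 52.7% and 7 over all 32851 windows of the promoter set. That set has more windows than the 19954 listed genes, so it is not 1 window per listed gene. Members with a mean of at least 1 FPKM (25 windows) had a median of 17 CpG sites, and those below it (36 windows) 10. The relation was loose. Kcng3, with 49 CpG sites, averaged 0.00820 FPKM, and Kcnk1, the highest member, had 10.

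**Figure D5:**
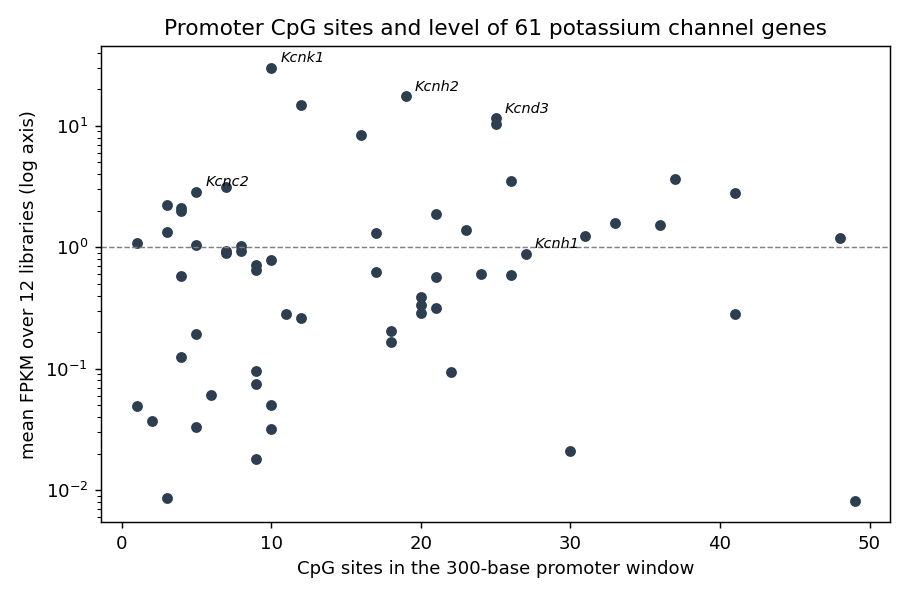
Number of CpG sites in the 300-base promoter window (x axis) against mean FPKM over the 12 libraries (y axis, log scale) for the 61 matched members, with a dashed line at 1 FPKM. Points spread widely: Kcnk1 is highest with 10 CpG sites and Kcnh1 has 27.

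Since Tbr2 is a T-box factor, the T-box motif GGTGTGA was searched on both strands of these windows. It occurred in 3 of 61 windows (4.92%), against 3.98% of all windows, and the difference between these shares was not tested. A match is a run of letters and not a shown binding site. The windows of Kcnh1 and Kcnc2 had no match. The 3 matches are printed with 10 bases on each side and the motif, or its reverse complement, in capitals. They lie at chr6:126740707-126740733 (Kcna6, minus strand), chr7:46396218-46396244 (Kcnc1, plus strand) and chr12:17176943-17176969 (Kcnf1, minus strand), each read along the strand of its gene.
Kcna6: ctgggtaaggGGTGTGAtgtgagagtg
Kcnc1: ttctcacctcGGTGTGAcgggggcgcg
Kcnf1: tggtacaaggTCACACCaccaccagca
In the edgeR fit of both sexes Kcna6 was at -0.07 (unadjusted p = 0.694), Kcnc1 at 0.13 (unadjusted p = 0.184) and Kcnf1 at 0.08 (unadjusted p = 0.389) on the log2 scale.

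Several members lie side by side in the genome. Kcna3 and Kcna2 are neighbours on chromosome 3, where Kcna3 averaged 3.68 ± 0.566 FPKM and Kcna2 1.25 ± 0.262 FPKM (SD over 12 libraries). On chromosome 6 the listed span of Kcna5 covers that of Kcna1, and Kcna6 lies next to them. Kcna5 averaged 2.12 ± 0.420 FPKM, Kcna1 0.0772 ± 0.0342 FPKM and Kcna6 0.926 ± 0.167 FPKM. Kcnj9 and Kcnj10 are neighbours on chromosome 1, at 1.03 ± 0.237 and 0.316 ± 0.130 FPKM. Neighbouring members could thus differ in counted level by more than their spread. Whether the wide listed span of Kcna5 changed the number of reads counted for Kcna1 was not tested, since the annotation used for counting is not known. Exon overlaps limit some values: in GENCODE M21, 49.1% of the exon bases of Kcnj13 are shared with Gigyf2, 39.6% of those of Kcna6 with Gm26673 and 20.8% of those of Kcnmb4 with Kcnmb4os2, all on the opposite strand.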

How the data were processed

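The submitters' processing notes name CASAVA for base calling, STAR 2.5 for alignment to mm10, HTSeq 0.6.1 for counting and DESeq2 for the comparisons. The annotation release and strand setting were not given in the sources used here. The authors deposited raw read counts per gene and library, which are whole numbers. The deposited FPKM values equalled count over listed length and library total within 0.0274%. The authors' deposited log2 fold changes and p-values entered no test.

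The deposited counts were tested with edgeR 4.0.16 (R 4.3.3), with TMM scaling, filterByExpr, the two-sided quasi-likelihood test and Benjamini-Hochberg adjustment over all genes at 0.05. The fit of both sexes had sex and genotype as terms. Each sex was also fitted alone, and the interaction and the wildtype sexes over all 12 libraries. DESeq2 1.42.0 and limma 3.58.1 were alternatives. Scripts were tested on simulated data. SEs restate the test.

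Deviations of same-numbered libraries had correlations of 0.21, 0.21 and 0.14 in females and -0.21, 0.01 and 0.29 in males, for numbers 4, 5 and 6. From these values the numbers were taken to pair females only, a pairing that the labels do not state. The replicate block was still fitted in every comparison, males alone included. In fits of both sexes, males and females of the same number shared a block, a link that neither these values nor the labels give. The highest values were those of female 4, female 5 and male 6, where both libraries lay in the same mt-Nd6 set. Pairing by number and the mt-Nd6 split thus cannot be told apart.

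Members, families and lists were chosen with earlier results of these data known. Named were Kcnh1, members past a threshold, the 10 highest members, 5 per direction with the smallest p over both sexes, 2 per other test and the 5 widest ranges. Further members were picked with their values in view, and some genes within these rules are not reported here. Sequences are from RefSeq (GRCm38.p6). Counting precision rests on total counts of 18514607 to 27072825 per library.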

Additional observations from a re-analysis of the deposited data

Results flagged for a closer look

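In 25 named members, each genotype was examined for a library far from the other 5, which makes 50 groups. The cut-off flags about 1 in 20 groups by chance where the 6 libraries are alike. Here the members were partly chosen by their values, and each group mixes sexes and mt-Nd6 sets, so that share need not hold. A library far from the other 5 was found in 4 groups. Kcnh1 was at 10.4 CPM in mutant female 5, against 6.67 to 7.67 CPM in the other mutant libraries. Kcne1 was at 4.66 CPM in mutant female 5, against 2.21 to 2.66 CPM in the others. Kcnk5 was at 15.9 CPM in wildtype female 5, against 9.02 to 11.3 CPM in the other wildtype libraries. Kcne1l was at 25.0 CPM in wildtype male 6, against 22.2 to 22.9 CPM in the others. Mutant female 5 was also the highest in the lens gene Cryaa (907 CPM), and the part of lens RNA in its Kcnh1 and Kcne1 values was not tested.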

How the results depend on the processing

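Members past the threshold numbered 1, Kcnh1, with DESeq2 in both sexes (0.67, adjusted p = 0.0230) and in females (0.96, adjusted p = 0.0477), and 0 in every other fit run. Over the whole table, edgeR's 4 genes in both sexes became 15 with DESeq2, 2 with the replicate block, 9 with a term for the mt-Nd6 set, 0 without the 3 libraries highest in Cryaa and 1 to 5 leaving out 1 library. For males the 0 genes became 6 with DESeq2. For females the 1 gene became 10 with DESeq2, 2 with the block, 62 within the high and 61 within the other mt-Nd6 set, 0 without the Cryaa library, and 0 to 2 leaving out 1 library. Within these sets 1 genotype had a single female library, assumed to vary like the rest. The interaction gave 2 genes within the high set. Between wildtype sexes the 1 gene became 2 with DESeq2, 4 within the high set and 1 to 2 leaving out 1 library. The 6 members with an unadjusted p under 0.05 became 3 within the other set, 2 without the Cryaa libraries and 2 to 7 leaving out 1 library. Kcnc4 reversed to -0.14 within the high set. The causes were not tested. Members at or above the level were 49 at 0.5 FPKM and 14 at 2 FPKM, and 27 to 30 at 1 FPKM leaving out 1 library. Under the replicate block no member passed the adjusted threshold in any comparison. At an unadjusted p under 0.05 it gave 5 members over both sexes, without Kcnh5 (0.0599) and Kcnn3 (0.0511) and with Kcnab1 (0.0487), 1 in males, without Kcnj8 (0.0871), 2 in the interaction, Kcnj8 (0.0353) and Kcnc4 (0.0479), and 0 between wildtype sexes, where Kcnip3 was at 0.0529. Males within the high set were not run, with 1 library per genotype. Kcna4 had 15 to 62 reads per library, and how small a difference could be detected at such counts was not tested.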

Other observations

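Rows named after potassium channel genes but typed as antisense were kept out of the members. Kcnq1ot1, the imprinted noncoding transcript within Kcnq1, was at 11.2 ± 4.08 CPM in mutants and 11.5 ± 4.98 CPM in wildtype (SD, n = 6 each), an edgeR log2 fold change of -0.02 (adjusted p = 0.989), while Kcnq1 itself averaged 0.140 FPKM. Kcnmb4os2 was at 3.71 ± 0.728 CPM in mutants and 3.84 ± 0.964 CPM in wildtype. Kcnd3os was at 0.887 ± 0.510 CPM in mutants and 1.06 ± 0.328 CPM in wildtype. These overlap members on the opposite strand, and without the strand setting their reads cannot be told apart from those of Kcnq1, Kcnmb4 and Kcnd3 where exons are shared.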
